A study of Homo sapiens with 24 samples.

Results

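Androgen-treated 22Rv1 cells were compared with androgen-treated LNCaP:C4-2 cells (C4-2 from here on), 2 human castration-resistant prostate cancer lines, by RNA sequencing. The libraries were chosen by their labels, as those of either line with a control siRNA and R1881, and they were 6 of the 24 libraries of the series, 3 of 22Rv1 and 3 of C4-2. In all 6, cells had been transfected with a non-targeting siRNA pool (siSCR), kept for 48 h without androgen, transfected a second time and then exposed to R1881 at 1 nM for 72 h in medium with charcoal-stripped serum, which holds little steroid. The other libraries of the series had ethanol vehicle in place of R1881 (6 siSCR libraries), or an siRNA pool against METTL3, the catalytic subunit of the RNA m6A methyltransferase, in place of the control pool (12 libraries). The series' design names C4-2 as sensitive and 22Rv1 as resistant to the antiandrogen drug enzalutamide.

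Androgens raise the transcription of luminal prostate genes such as KLK3 and TMPRSS2 through androgen response elements, short DNA motifs near these genes at which coactivators are recruited. R1881 is a synthetic androgen that is metabolised slowly. C4-2 descends from LNCaP, a line from a lymph node metastasis, after growth in castrated mice, while 22Rv1 was grown from a xenograft that relapsed after castration of its host.

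Each group was 1 cell line, so a difference between the groups is a difference between these lines as cultured here, and line and any preparation batch cannot be told apart. Whether libraries with different numbers came from separate cultures is not given in the sources used here, and p-values therefore measure only the spread between these libraries, which may be technical. The R1881 libraries held 17249906 to 18287758 counted fragments in 22Rv1 and 16798308 to 21030473 in C4-2, against 15716224 to 21306019 over the series. Mitochondrially encoded genes took 4.958 to 5.276% of fragments in 22Rv1 and 7.081 to 9.729% in C4-2, and 16730 to 16912 genes in 22Rv1 against 15093 to 15613 in C4-2 had 10 counts or more. Levels are given as CPM, the counts of a gene scaled to a common library total. METTL3, the gene depleted elsewhere in the series, was at 50.7 ± 1.56 CPM in 22Rv1 and 33.1 ± 2.51 in C4-2 (SD, n = 3). Genes on chromosome Y were left out.

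The labelled cell type, prostate cancer cells, was checked against markers. The luminal keratin KRT8 was at 498, 463 and 491 CPM in the 22Rv1 libraries and 686, 470 and 501 CPM in the C4-2 libraries, which overlapped, and KRT18 was also present in both lines. The luminal genes KLK3, HOXB13 and FOLH1 were each over 10-fold lower in 22Rv1 and are described with their groups. Of 15 markers of basal, stromal, endothelial and immune cells, 8 had at most 3 counts in all 6 libraries, among them the immune genes CD3E and CD68 and the endothelial gene CDH5. Their summed level was 17.9 to 18.6 CPM in 22Rv1 and 48.2 to 57.1 CPM in C4-2, and most of it was the collagen gene COL1A1, at 15.9 and 43.2 CPM.

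An androgen response element known for KLK3 and KLK2 lies just before their starts, and elements farther from the starts were not searched. Both windows are shown because the line difference of these genes changed from vehicle to R1881 by more than that of most listed genes. The windows hold the 250 bases before each start, on the plus strand of chromosome 19 in GRCh38.p14, at chr19:50854665-50854914 for KLK3 and chr19:50873189-50873438 for KLK2, from RefSeq. Capitals mark letters that match either of 2 searched motifs, the androgen response half-site AGAACA and the composite element, which is GAACA and AGTGCT with 3 bases of any kind between them.
KLK3: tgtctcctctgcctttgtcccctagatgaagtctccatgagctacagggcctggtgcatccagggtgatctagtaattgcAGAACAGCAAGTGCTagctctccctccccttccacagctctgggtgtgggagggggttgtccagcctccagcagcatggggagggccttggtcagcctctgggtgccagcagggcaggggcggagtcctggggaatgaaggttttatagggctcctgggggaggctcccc
KLK2: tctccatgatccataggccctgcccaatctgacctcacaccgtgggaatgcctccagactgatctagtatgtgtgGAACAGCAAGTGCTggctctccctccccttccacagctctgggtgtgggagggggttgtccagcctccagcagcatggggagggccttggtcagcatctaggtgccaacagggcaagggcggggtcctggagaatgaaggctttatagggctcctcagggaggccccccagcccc
The composite match lies 169 to 156 bases before the start in KLK3 and 175 to 162 bases before it in KLK2, and the half-site was found in KLK3, 170 to 165 bases before the start, where it overlaps the composite match, and not in the KLK2 window. The composite motif was written from knowledge of this KLK3 element, so its match there was given. The KLK2 window has the same letters at the match and a nearly identical stretch after it, so its match is not independent. These matches therefore do not test whether the motif is more common among androgen-induced genes. Counting either strand, it is in 0.0427% of 35116 RefSeq promoter windows of 300 bases, and the half-site is in 14.8%. Of the 28 androgen-induced genes listed for this comparison, 21 had a promoter window, 2 of them with the composite motif (KLK2 and KLK3) and 4 with the half-site. Counted by gene in the same way, the composite motif is in 0.0549% of 27305 genes and the half-site in 17.5%.

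The line difference with R1881 was large and spread over the transcriptome. Of 18518 genes tested, 11183 (60.4%) were called, meaning that the line difference was at least 1.5-fold and its p, from the quasi-likelihood test of edgeR and adjusted over these genes after Benjamini and Hochberg, was under 0.05. Of all genes tested, 6111 (33%) were higher in 22Rv1 and 5072 (27.4%) were lower, and the median log2 difference, 22Rv1 minus C4-2 here and throughout, was 0.09. At 4-fold or more, 2968 genes (16%) were higher and 1783 (9.63%) lower in 22Rv1. These sets were taken by the fitted fold. Of these genes, 1387 had at most 3 counts in every C4-2 library and 508 at most 3 in every 22Rv1 library. Such genes are called at the floor, and their fitted fold is uncertain. A lower bound of their fold is taken against 3 counts per library, equal to 0.163 CPM in 22Rv1 and 0.175 CPM in C4-2. That bound can be under 4-fold, so the counts at 4-fold are not counts of minimum folds. The 3 libraries of one line lay wholly above the 3 of the other for 98.3% of called genes. A call already selects genes with such separation, so this share adds no support to the calls. An exact permutation test of 3 against 3 cannot go below p = 0.1. The shares of all genes tested, given above, are the background for the groups of genes described next. Of all genes tested, 1945 were at the floor in a single line and could come out only as higher in the other. The groups hold such genes too, and their direction is not independent support. Scaling by library size alone moved the median over all genes to 0.28 and the medians of the gene groups by 0.18 to 0.2, and 3 of the 27 medians then changed sign, those of the matrix, polyamine and zinc, and guidance genes.

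Most of these differences were also present in libraries that the R1881 contrast did not use. In the vehicle libraries 10937 genes were called (59.1%), and 9192 of them had been called in the same direction with R1881, which is 82.2% of the R1881 calls and 84.0% of the vehicle calls, while 80 were called in opposite directions. With METTL3 depleted and R1881 present, in a separate fit of other libraries that called 60.8% of genes, 9918 of the 10927 R1881 calls tested there were called in the same direction (90.8%, and 90.2% of the calls in that fit) and 4 in the opposite one. Of the genes called at 4-fold or more by the fitted fold with R1881, 95.2% had the same call in vehicle and 98.5% with METTL3 depleted. A test of the change of the line difference between treatments, the interaction of line and R1881, called 2330 genes (12.6%), 915 upward (4.94%) and 1415 downward (7.64%) in 22Rv1 relative to C4-2. With scaling by library size alone the split was 1217 upward and 1157 downward, so the excess of downward calls depends on the scaling. Of 1911 genes called with R1881 and not in vehicle, 516 had a called change, and of 9192 called alike in both, 8042 had none.

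**Figure D1:**
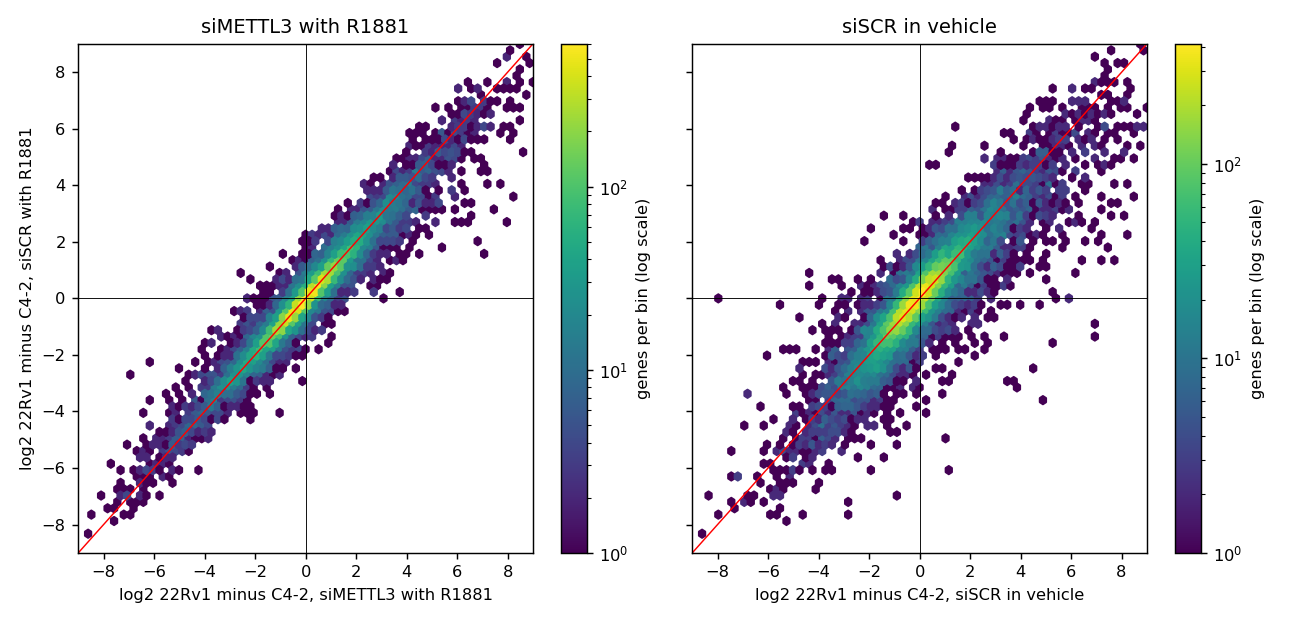
Line difference with R1881 in siSCR libraries (y axis, log2, 22Rv1 minus C4-2) against the same difference in siMETTL3 libraries with R1881 (left) and in siSCR libraries in vehicle (right), as counts of genes per bin for 16232 genes. Of the 18518 tested, 1972 at the floor in a line with R1881, 257 others not tested with METTL3 depleted and 57 with a value beyond 9 on an axis are not drawn. The genes lie along the red line of equality in both panels, more narrowly in the left one, and the right panel holds genes near 0 in vehicle that are negative with R1881.

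Androgen-induced genes were mostly lower in 22Rv1 when R1881 was present, and the line difference of most of them had moved downward from vehicle. All 28 listed genes were tested, with 21 lower and 4 higher in 22Rv1 and a median log2 difference of -2.08, against 0.08 for the same genes in vehicle and 0.09 for all genes with R1881. The change of the line difference was called for 24 of the 28, in each case downward in 22Rv1. The mean level with R1881 was above that in vehicle for 28 of 28 genes in C4-2 and for 19 of 28 in 22Rv1. The list holds genes known to be induced by androgen and was chosen with earlier results of these data known. These counts are therefore partly set by the choice of genes and are not independent support.

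KLK3 (ENSG00000142515, chr19:50854915-50860764), which encodes prostate-specific antigen, was at 6.17, 6.19 and 7.45 CPM in the 22Rv1 libraries and 368, 313 and 315 CPM in the C4-2 libraries. The groups were far apart, with a log2 difference of -5.65 ± 0.13 (SE; adjusted p = 2.44e-16, edgeR), against -1.53 ± 0.13 in vehicle. KLK2, a neighbouring kallikrein protease, was at 35, 29.7 and 32.3 CPM in 22Rv1 and 255, 248 and 254 CPM in C4-2. Its log2 difference was -2.96 ± 0.12 with R1881 and 1.02 ± 0.12 in vehicle, so the line with the higher level was C4-2 with androgen and 22Rv1 without it. KLK4, the third prostate kallikrein on the list, was at 107, 101 and 95.3 CPM in 22Rv1 and 133, 107 and 108 CPM in C4-2, a log2 difference of -0.20 ± 0.14 that was not called, where vehicle gave 2.08 ± 0.14. The changes of the line difference between vehicle and R1881 were -4.12, -3.98 and -2.28 for KLK3, KLK2 and KLK4 on the log2 scale.

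TMPRSS2, a membrane serine protease whose promoter drives ERG fusions in many prostate tumours, was at 5.52, 4.63 and 4.34 CPM in 22Rv1 and at 1234, 804 and 783 CPM in C4-2. Every C4-2 library was over 100-fold above every 22Rv1 library, and the log2 difference was -7.60 ± 0.20 (adjusted p = 7.67e-16, edgeR) against -2.91 ± 0.17 in vehicle. SLC45A3 (prostein, a prostate transporter) was at 20.4 ± 0.676 CPM in 22Rv1 and 500 ± 90.2 in C4-2, and ABCC4, a multidrug and cyclic nucleotide exporter, at 16 ± 0.298 and 874 ± 28.5, with log2 differences of -4.62 and -5.77. NDRG1, a stress-responsive growth suppressor, was at 29 ± 0.894 CPM in 22Rv1 and 840 ± 203 in C4-2. MAF, a basic leucine zipper factor, had one of the largest changes of the list, since it was at 0.598 CPM in 22Rv1 and 79 CPM in C4-2 with R1881 and at 0.85 and 1.64 CPM in vehicle.

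The 4 androgen-induced genes higher in 22Rv1 were FKBP5, ZBTB10, STEAP4 and CHRNA2. FKBP5, an androgen-induced co-chaperone of steroid receptors, was higher in 22Rv1, at 1843, 1791 and 1942 CPM against 1046, 910 and 911 CPM in C4-2, and its log2 difference of 0.96 ± 0.07 was close to the 1.15 ± 0.08 seen in vehicle. ZBTB10, a zinc finger repressor, was higher in 22Rv1 as well, at 972 ± 36.1 against 121 ± 3.62 CPM, although its log2 difference was 3.01 with R1881 and 4.44 in vehicle. STEAP4, a metalloreductase, and CHRNA2, a nicotinic receptor subunit, were higher in 22Rv1 by 1.26 and 1.82 log2 units. Among the genes lower in 22Rv1, RHOU, an atypical small GTPase, and PTGER4, a prostaglandin E2 receptor, had been higher in vehicle, with log2 differences of 2.17 and 2.10 there and -1.63 and -2.12 with R1881. TRPM8, a cold-sensing calcium channel, was lower, at -7.20 log2 units, at 0.107 against 17.1 CPM.

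**Figure D2:**
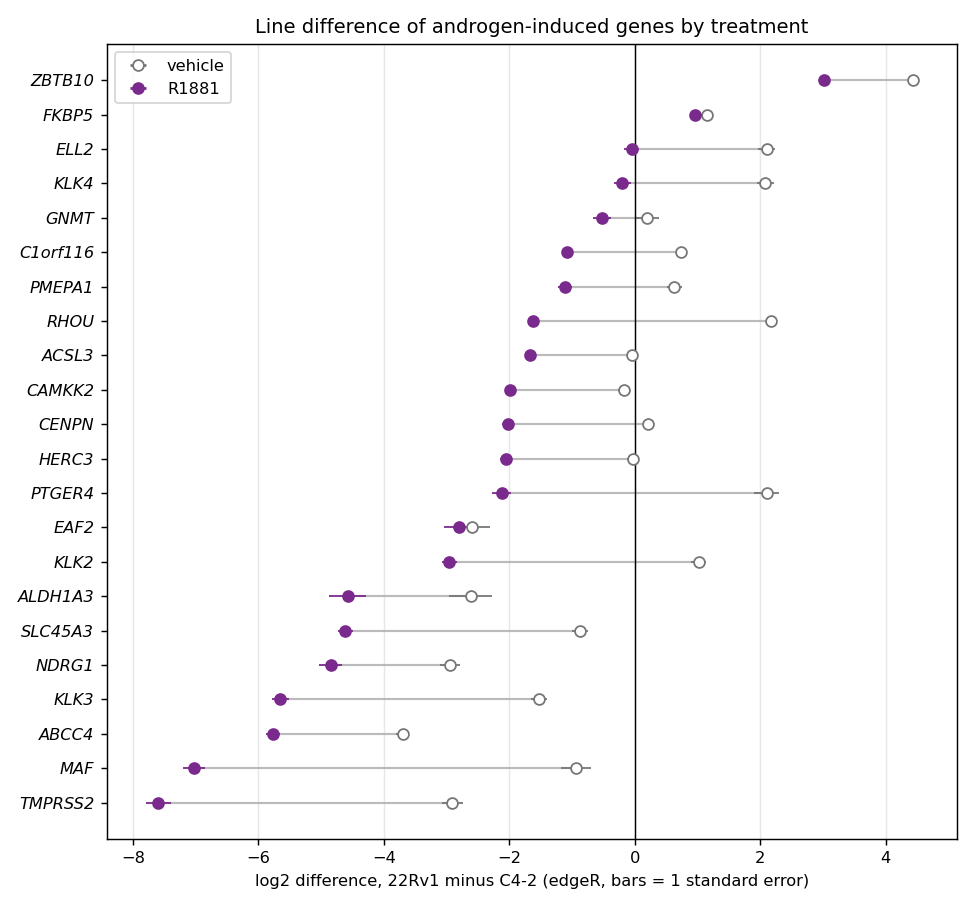
Line difference (log2, 22Rv1 minus C4-2, bars 1 standard error) of 22 of the 28 androgen-induced genes with R1881 (filled) and in vehicle (open), all with a mean of at least 0.2 CPM in each condition. Every filled point lies to the left of its open point, and the filled points run from ZBTB10 at 3.01 down to TMPRSS2 at -7.60 with R1881.

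Of the 19 tested genes for coregulators and lineage factors of androgen signalling, 6 were higher and 7 lower in 22Rv1, with a median of 0.02. The pioneer factor FOXA1, which opens chromatin at prostate enhancers, was at 379 ± 9.11 CPM in 22Rv1 and 495 ± 42.8 in C4-2 and was not called. Several of the factors that act with it were lower in 22Rv1. HOXB13, a posterior homeobox factor of the prostate, was at 33.4, 35.5 and 32 CPM in 22Rv1 and 513, 351 and 345 CPM in C4-2, a log2 difference of -3.58 ± 0.14. GATA2, a zinc finger factor, and the epithelial factors GRHL2 and SPDEF were lower, at -2.84, -2.15 and -0.66 log2 units. The coactivator NCOA1 was also lower, at 38.6 against 236 CPM. For HOXB13, GRHL2 and SPDEF the log2 difference had changed from vehicle by -1.26, -1.31 and -2.08, and that of SPDEF had been 1.42 there, higher in 22Rv1. The call of SPDEF with R1881 rested on C4-2 replicate 1, without which its log2 difference was -0.47, under the threshold, and a GC offset gave -0.13.

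Other transcription factors were higher in 22Rv1. NR3C1, the glucocorticoid receptor, was at 67.6, 66.7 and 67.3 CPM in 22Rv1 and 0.0589, 0.0642 and 0.104 CPM in C4-2, where no library had more than 3 counts, so it was higher by at least 8.58 on the log2 scale. The PEA3-family ETS factors ETV1, ETV4 and ETV5, oncogenic in a subset of prostate tumours, were at 61.1, 42 and 53 CPM in 22Rv1 and at 0.0428, 0.121 and 0.995 CPM in C4-2. SOX9, a progenitor factor, was higher by 1.94 ± 0.12 log2 units.

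**Figure D3:**
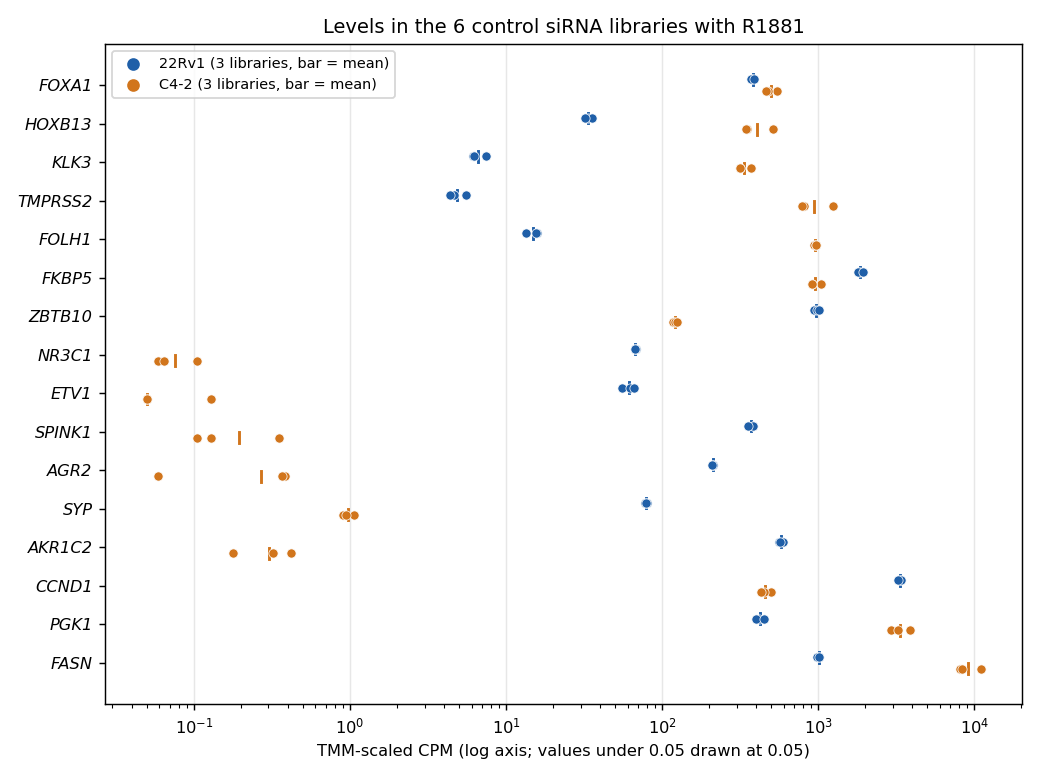
Levels of 16 genes in the 6 siSCR libraries with R1881 as CPM scaled by trimmed mean of M values (log axis, points 1 library, bars the mean of 3, values under 0.05 drawn at 0.05). The points of the lines do not overlap for any gene drawn, with 22Rv1 (blue) at 6.17 to 7.45 CPM for KLK3 and C4-2 (orange) at 313 to 368 CPM.

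Enzymes of steroid metabolism differed in both directions. Of 20 tested, 11 were higher and 6 lower in 22Rv1, with a median of 0.93. Of the 20, 5 were at the floor in a line, which set their direction. AKR1C2, an aldo-keto reductase that converts dihydrotestosterone to a weak metabolite, was at 592, 560 and 571 CPM in 22Rv1 and 0.177, 0.321 and 0.416 CPM in C4-2, a log2 difference of 10.83 ± 0.21 (adjusted p = 2.83e-17, edgeR). AKR1C1 was also higher, at 53.3 against 0.498 CPM, while AKR1C3, which makes testosterone from androstenedione, was low in both lines, at 0.524 and 0 CPM. These genes are near-identical and fragments matching more than 1 of them were not counted, so the split among them is uncertain. CYP11A1, the side-chain cleavage enzyme that begins steroid synthesis, had no count in 22Rv1 and was at 29.2, 10.6 and 16.3 CPM in C4-2, lower in 22Rv1, at -6.84 log2 units or below. SRD5A1, a 5-alpha reductase, was lower, at -0.73 log2 units, and HSD17B11, a short-chain dehydrogenase, was higher by 3.04 log2 units.

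UGT2B genes encode enzymes that glucuronidate androgens for export, and they too have near-identical copies. UGT2B15 was at 139, 136 and 153 CPM in 22Rv1 and 12.7, 21.7 and 27.2 CPM in C4-2, higher by 2.79 ± 0.19 log2 units. UGT2B10 and UGT2B11 were higher by 3.14 and 0.90 log2 units, and UGT2B17 was lower, at -2.78 log2 units. UGT2B28 was at 49 ± 9.31 CPM in 22Rv1 and 52.2 ± 16.2 in C4-2, a difference that was not called. In vehicle UGT2B11 and UGT2B28 were lower in 22Rv1, at -1.53 and -2.90 log2 units, so their differences changed by 2.42 and 2.81, against the direction of the androgen-induced list.

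Prostate surface antigens were lower in 22Rv1 in 13 of 17 tested genes and higher in 3, with a median of -2.99. Of the 17, 4 were at the floor in a line, which set their direction. FOLH1, which encodes prostate-specific membrane antigen, a target of imaging and radioligands, was at 13.5, 15.8 and 15.5 CPM in 22Rv1 and 935, 971 and 964 CPM in C4-2. The log2 difference was -6.00 ± 0.10 (adjusted p = 3.69e-18, edgeR) with R1881 and -3.66 ± 0.09 in vehicle. STEAP1 and STEAP2, metalloreductase-family antigens of the prostate surface, were lower, at -3.03 ± 0.11 and -3.91 ± 0.11 log2 units, which was less than in vehicle, where the differences were -4.34 and -5.03. PSCA, a GPI-anchored antigen, was at most 3 counts in every 22Rv1 library and at 12.9 CPM in C4-2, lower, at -6.31 log2 units or below. SLC44A4, a choline transporter, NECTIN4, an adhesion molecule, and DLL3, a Notch ligand used as a neuroendocrine target, were lower, at -4.15, -3.39 and -2.99 log2 units. The log2 difference of the mucin MUC1 was -4.54, against -1.26 in vehicle.

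The 3 antigens higher in 22Rv1 were CD24, CD44 and TSPAN8. CD44, the hyaluronan receptor, was at 32.4, 31.8 and 31.8 CPM in 22Rv1 and 0, 0 and 0.208 CPM in C4-2. TSPAN8, a tetraspanin of digestive epithelia, was at 168, 179 and 197 CPM in 22Rv1 and at most 3 counts in each C4-2 library, higher by at least 10.02 log2 units. CD24, a mucin-like adhesion molecule, was higher by 1.56 log2 units.

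Genes of the gastrointestinal lineage were higher in 22Rv1 in 12 of 18 tested and lower in 3. The median was 3.50, or 2.52 with the 7 genes at the floor set to their bound. The direction of these 7 was set by their being at the floor in a line. SPINK1 (chr5:147824568-147831786), a secreted trypsin inhibitor overexpressed in a subset of prostate cancers, was at 382, 380 and 353 CPM in 22Rv1 and 0.353, 0.128 and 0.104 CPM in C4-2. AGR2, a protein disulphide isomerase of mucus-secreting cells, was at 213, 211 and 209 CPM in 22Rv1 and 0.0589, 0.385 and 0.364 CPM in C4-2. Both genes were separated by over 500-fold, with log2 differences of 10.86 ± 0.18 and 9.57 ± 0.20.

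HNF4A, a nuclear factor of liver and gut, was at 3.42 ± 0.908 CPM in 22Rv1 and 0.0785 ± 0.136 in C4-2. The brush border gene VIL1 was at 43.1 and the mucin MUC13 at 71.6 CPM in 22Rv1, and both were under 0.2 CPM in C4-2. TFF3, a trefoil peptide of mucus, went the other way, with no count in 22Rv1 and 8.75 ± 1.73 CPM in C4-2. SLC26A3, a chloride and bicarbonate exchanger, was at 6.5 ± 1.94 and 6.15 ± 0.869 CPM, and was not called with R1881.

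The list of neuroendocrine genes and REST held 20 genes, of which 14 were tested. Of these 14, 12 were higher in 22Rv1 and 1 was lower. The direction of 5 of the 14 was set by their being at the floor in a line. The 12 include REST, which represses neuronal genes, and DLL3, lower in 22Rv1, was counted with the surface antigens. The list median was 4.95, or 3.24 with the 5 genes at the floor set to their bound. The median in vehicle was 4.28. SYP, the synaptic vesicle protein synaptophysin, was at 79.8, 77.9 and 78.6 CPM in 22Rv1 and 1.06, 0.898 and 0.937 CPM in C4-2, a log2 difference of 6.34 ± 0.15 (adjusted p = 2.36e-16, edgeR). SRRM4, a neural splicing factor, was at 157, 147 and 138 CPM in 22Rv1 and had no count in C4-2, higher by at least 9.71 log2 units. SCG3 and CHGB, granins of secretory vesicles, were at 94.6 and 14.8 CPM in 22Rv1 and at 0.0428 and 0 CPM in C4-2. PEG10, a retrotransposon-derived gene, was at 519 ± 10.5 CPM against 0.559 ± 0.128.

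Some factors that mark neuroendocrine prostate cancer were not high in 22Rv1. INSM1 and NEUROD1 were too low in all conditions to be tested. ONECUT2, a homeobox factor present in both lines, was higher by 1.98 log2 units, and REST, the repressor of neuronal genes, was also higher by 0.74 ± 0.09 log2 units, although with a GC offset it was at 0.41 and not called. DDC, an aromatic amino acid decarboxylase, was the gene lower in 22Rv1, at 26.8 ± 0.464 against 60.8 ± 6.28 CPM.

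Of 5 keratins tested, 3 were lower in 22Rv1, and KRT8 and KRT18, the keratins of simple epithelia, were not called (-0.19 ± 0.12 and 0.36 ± 0.11 on the log2 scale). KRT19 was at 6.11, 4.74 and 4.88 CPM in 22Rv1 and 74.4, 48.1 and 54.7 CPM in C4-2, and its log2 difference of -3.49 compared with -1.25 in vehicle. KRT10 was lower, at -2.91 log2 units, much as in vehicle, where it was -2.80. Among 23 cell junction and epithelial-mesenchymal genes, 11 were lower and 6 higher, with a median of -0.28. CDH1, the epithelial cadherin, was at 338 ± 8.74 CPM in 22Rv1 and 745 ± 16.7 in C4-2, and CDH2, the neural cadherin, at 3.78 ± 1.13 CPM and no count. The tight junction genes TJP1, CLDN4 and CLDN8 were lower in 22Rv1, at -2.60, -2.36 and -4.95 log2 units. TWIST1, a mesenchymal factor, was higher by at least 6.40 log2 units, whereas SNAI2, another such factor, and VIM, the intermediate filament vimentin, were lower, SNAI2 at -5.26 log2 units or below and VIM at -3.48.

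Integrins, laminins and collagens were split, with 10 of 27 tested genes higher and 10 lower and a median of -0.02, which became 0.17 when scaled by library size alone. COL6A1, a collagen of the pericellular matrix, was at 5.46, 5.97 and 5.52 CPM in 22Rv1 and 302, 253 and 266 CPM in C4-2, and LAMA1, a laminin chain, had no count in 22Rv1 and was at 23.9 ± 3.62 CPM in C4-2. COL5A2 and the laminin chain LAMB3 were higher in 22Rv1 by 5.28 and 4.15 log2 units. Among integrins, ITGA1 and ITGB5 were higher by 3.78 and 2.12 log2 units, and ITGA6, a laminin receptor subunit, was lower, at -2.91 log2 units.

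Growth factor receptors and ligands were called in 26 of 28 tested genes, 12 higher and 14 lower in 22Rv1. Of the 28, 8 were at the floor in a line, which set their direction. EGFR, the receptor for epidermal growth factor, was at 28, 32.5 and 31.2 CPM in 22Rv1 and 403, 332 and 355 CPM in C4-2, a log2 difference of -3.57 ± 0.11 that was -1.50 ± 0.10 in vehicle. ERBB2, its dimerisation partner, and the ligand EGF were lower too, at -2.30 and -5.77 log2 units. Ligands of the same receptor, AREG and EREG, were on the other side, at 37.5 and 8.36 CPM in 22Rv1 and at 0.0347 and 0 CPM in C4-2.

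IGF1R, the insulin-like growth factor receptor, was at 5.19, 3.85 and 4.5 CPM in 22Rv1 and 118, 88.8 and 84.5 CPM in C4-2, and IGFBP3, a secreted binding protein of its ligands, at 327, 304 and 288 and 5.89, 5.2 and 9.16 CPM. Their log2 differences of -4.43 ± 0.15 and 5.49 ± 0.16 had opposite signs, and both were much smaller in vehicle, at -0.55 and 1.30, with changes of -3.88 and 4.19. MET, the hepatocyte growth factor receptor, was higher by 3.53 log2 units with R1881 and 1.69 in vehicle, and FGFR1 was higher by 2.39 log2 units. In the WNT, TGF-beta and Hedgehog pathways 17 of 32 tested genes were higher and 10 lower, with a median of 0.72. LEF1, a nuclear effector of WNT signalling, was higher by 3.61 ± 0.21 log2 units, against 1.05 ± 0.17 in vehicle. TGFB2, a TGF-beta ligand, the receptor TGFBR2 and the target ID2 were higher by 6.68, 5.25 and 3.22 log2 units, SHH, the Hedgehog ligand, was at 2.86 CPM in 22Rv1 and had no count in C4-2, and the ligand WNT7B was lower, at -5.43 log2 units.

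Enzymes of glycolysis and targets of the hypoxia factor HIF-1 were lower in 22Rv1 in 23 of 28 tested genes and higher in 2, with a median of -2.26. The same list had a median of -2.06 in vehicle and -2.37 with METTL3 depleted. PGK1, an ATP-producing step of glycolysis, was at 415, 400 and 449 CPM in 22Rv1 and 3867, 2936 and 3230 CPM in C4-2, a log2 difference of -2.99 ± 0.11 (adjusted p = 6.67e-14, edgeR). LDHA, the lactate dehydrogenase subunit that favours lactate, was at 489, 469 and 570 CPM in 22Rv1 and 2749, 2718 and 2974 CPM in C4-2, while LDHB, the other main subunit, was higher in 22Rv1, at 1273, 1282 and 1361 against 499, 486 and 511 CPM. The 2 subunits differed by -2.47 ± 0.09 and 1.39 ± 0.08 log2 units, in opposite directions.

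ENO1, ALDOA, ALDOC and PFKP, which encode enolase, aldolases and a phosphofructokinase, were lower, at -2.08, -2.32, -3.96 and -4.75 log2 units. SLC16A3, the lactate exporter, and PDK1, which keeps pyruvate from the mitochondrion, were lower, at -5.18 and -3.44 log2 units. Typical HIF-1 targets followed: EGLN3, an oxygen-sensing prolyl hydroxylase, was at 0.761 against 90 CPM, BNIP3, a mitophagy receptor, at 112 against 1375, and CA9, a carbonic anhydrase, had no count in 22Rv1 and was at 22.1 ± 9.47 CPM in C4-2. VEGFA, the angiogenic ligand, was lower, at -1.34 log2 units. A change of the line difference was called for 10 of the 28 listed genes, all downward in 22Rv1, against 7.64% of all genes downward. The difference of EGLN3 and of ALDOC was wider with R1881 than in vehicle, with changes of -2.74 and -1.77 log2 units. SLC2A3, a neuronal glucose transporter, was at 2.07 against 12 CPM with R1881, and at 0.146 and 0 CPM in vehicle.

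Cholesterol and fatty acid synthesis genes were lower in 22Rv1 in 14 of 28 tested and higher in 1, with a median of -0.58 that was 0.07 in vehicle. A change of the line difference was called for 20 of the 28, all downward in 22Rv1, and the R1881 mean was above the vehicle mean for 24 of 28 in C4-2 and 11 of 28 in 22Rv1. FASN (chr17:82078333-82098332), the fatty acid synthase, was at 1012, 987 and 1016 CPM in 22Rv1 and 10980, 8139 and 8333 CPM in C4-2, a log2 difference of -3.19 ± 0.12 (adjusted p = 8.29e-14, edgeR) with R1881 and -2.09 ± 0.11 in vehicle. SCD, which desaturates stearate, was at 1110, 1158 and 1206 CPM in 22Rv1 and 6160, 4697 and 5078 CPM in C4-2, and FADS2, a desaturase of polyunsaturated fatty acids, at 23.3 ± 1.75 and 3096 ± 406 CPM. SREBF1, the factor that drives fatty acid synthesis genes, was lower, at -3.59 log2 units, and had changed by -1.28, whereas SREBF2, its counterpart for cholesterol genes, was at 458 ± 8.44 CPM in 22Rv1 and 449 ± 74.3 in C4-2.

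INSIG1, which retains SREBP precursors in the endoplasmic reticulum, was lower, at -3.31 log2 units, with a change of -1.69. HMGCS1, which makes HMG-CoA, was higher in 22Rv1 in vehicle by 1.62 log2 units and was not called with R1881, at 0.52, although it was called, at 0.67, without C4-2 replicate 3. The log2 changes of SCD, FASN, FADS2 and HMGCS1 from vehicle were -1.67, -1.10, -1.64 and -1.10. ELOVL6, a fatty acid elongase, was the gene higher in 22Rv1, by 0.77 log2 units, and with a GC offset it was at 0.45 and not called.

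**Figure D4:**
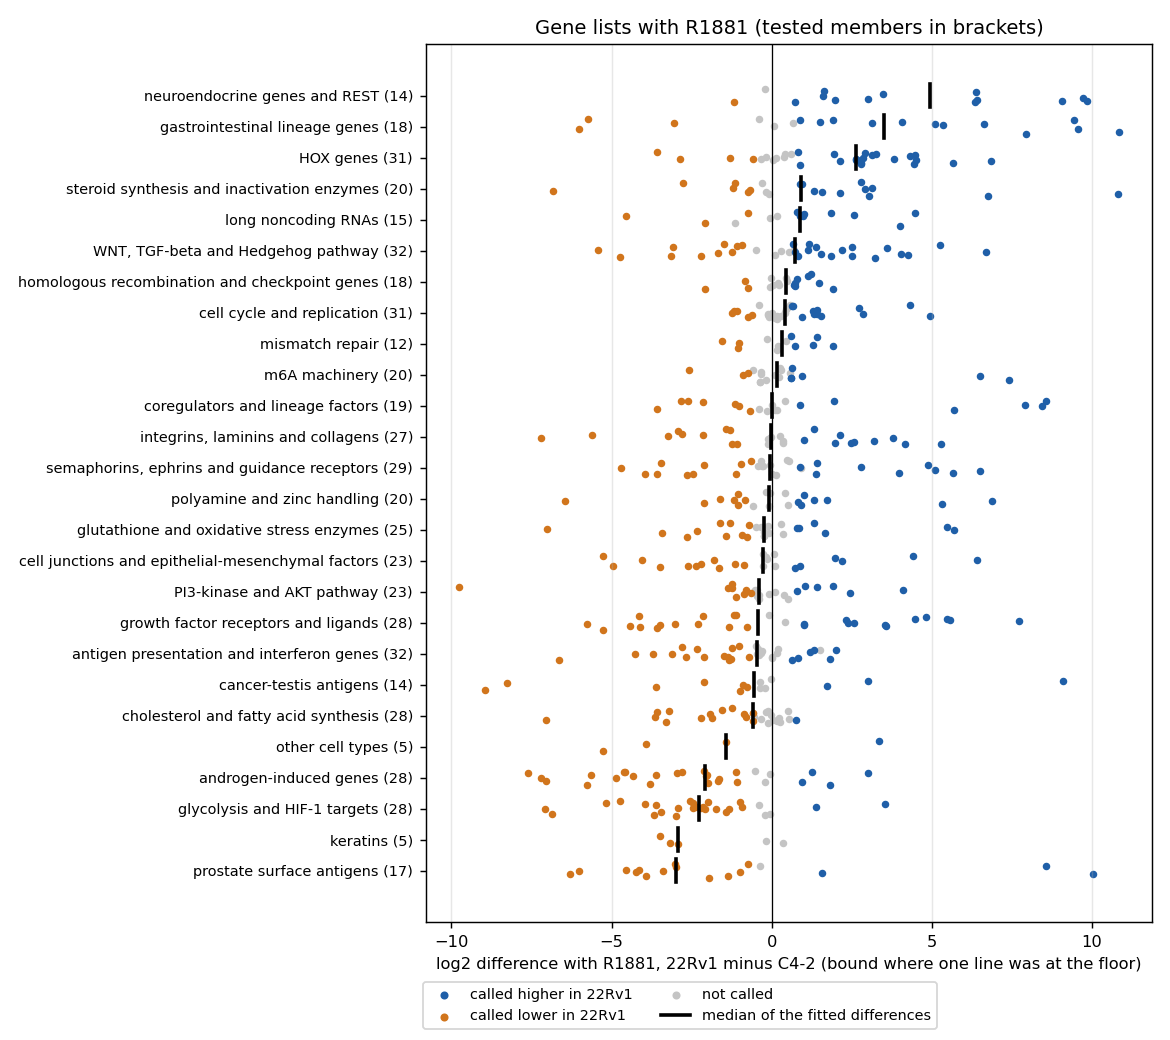
Line difference with R1881 (log2, 22Rv1 minus C4-2) of every tested member of 26 gene lists, 1 point a gene, with genes at the floor in the lower line drawn at their bound, PTPRC left out because both lines were at the floor, and black bars for the median of the fitted values. Prostate surface antigens, keratins and glycolysis genes have medians of -2.99, -2.91 and -2.26. The list of neuroendocrine genes and REST has the highest median, 4.95.

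Cell cycle and replication genes were higher in 22Rv1 in 12 of 31 tested and lower in 5, with a median of 0.43, against -0.29 in vehicle. The difference changed upward for 11 and downward for 1 of them. CCND1, the cyclin that opens G1, was at 3331, 3386 and 3263 CPM in 22Rv1 and 495, 451 and 427 CPM in C4-2, a log2 difference of 2.86 ± 0.07, and its partners CDK4 and CDK6 were higher by 1.32 and 4.32 log2 units. CDKN2A, an inhibitor of these kinases, was higher too, at 51.4 ± 1.55 against 1.68 ± 0.635 CPM. The replication licensing genes MCM2 and MCM5 were higher by 0.67 and 1.42 log2 units, where in vehicle they were at -0.30 and 0.32. CDK1 and the thymidine kinase TK1 were lower, at -1.23 and -1.17 log2 units. The log2 changes of CDK4, MCM2, MCM5 and TK1 were 0.82, 0.97, 1.10 and 0.94.

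Homologous recombination and checkpoint genes were higher in 8 of 18 tested and lower in 3, with a median of 0.46, and the 7 with a called change all moved upward in 22Rv1 relative to C4-2. BRCA1, which acts in the repair of double-strand breaks, was at 169, 175 and 182 CPM in 22Rv1 and 31.7, 54.7 and 53.1 CPM in C4-2, while its partner BARD1 was at 19.9 ± 2.99 and 84.5 ± 16.1 CPM. Their log2 differences were 1.92 ± 0.15 and -2.09 ± 0.15, with changes of 1.25 and 1.28. Of 12 mismatch repair genes 5 were higher and 3 lower. MSH6, a mismatch recognition subunit, was lower, at 30.2, 27.7 and 27.9 CPM in 22Rv1 and 50.8, 62 and 64.4 CPM in C4-2, a log2 difference of -1.05 ± 0.10.

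CDKN1A, the inhibitor p21, was at 114 ± 8.56 CPM in 22Rv1 and 102 ± 26.9 in C4-2 and was not called, while BBC3, a death effector, and SESN2, a stress sensor, were higher by 3.67 and 2.21 log2 units. In the PI3-kinase pathway 6 of 23 tested genes were higher and 8 lower, with a median of -0.39. Among catalytic subunits, PIK3CD was at 163, 134 and 132 CPM in C4-2 and at most 3 counts in each 22Rv1 library, lower, at -9.77 log2 units or below, whereas PIK3CA was higher by 1.92 log2 units. AKT1 was lower, at -1.25 log2 units. IRS1 and IRS2, adaptors of the insulin receptor, had opposite orders, with log2 differences of -1.37 and 4.11, and both had changed downward from vehicle, at -2.92 and -2.49.

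Antigen presentation and interferon genes were lower in 22Rv1 in 15 of 32 tested and higher in 6, with a median of -0.47. HLA-C, a heavy chain of the class I complex, was at 75.2, 72.5 and 72.4 CPM in 22Rv1 and 241, 153 and 158 CPM in C4-2, a log2 difference of -1.33 ± 0.14, but B2M, the light chain, was at 385 ± 20.6 and 378 ± 10.4 CPM, without a call. BST2, an antiviral membrane protein, and IRF7, an interferon regulatory factor, were lower, at -6.63 ± 0.17 and -3.69 ± 0.15 log2 units, and ISG15, a ubiquitin-like modifier, was higher by 1.83 ± 0.13 log2 units. NLRC5, the activator of class I genes, was lower in 22Rv1 in vehicle and higher with R1881, at -2.30 and 2.00 log2 units, a change of 4.30. HLA genes are close in sequence, which makes the division of counts among them uncertain.

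Among 25 glutathione and oxidative stress genes 10 were lower and 6 higher. GSTM3, a glutathione transferase, was at 1.25 ± 0.272 CPM in 22Rv1 and 164 ± 2.7 in C4-2, and GSTO2, another one, at 76 ± 2.86 and 1.67 ± 0.431 CPM, in opposite order. NQO1, a quinone reductase, and PRDX1, a peroxidase, were lower, at -3.43 and -2.32 log2 units. GCLC, which begins glutathione synthesis, was higher by 1.67 log2 units with R1881 and at 0.01 in vehicle. In polyamine and zinc handling 7 of 20 genes were higher and 7 lower, with a median of -0.07 that became 0.13 when scaled by library size alone. SLC30A4, a zinc exporter of the prostate, was at 4.92, 4.68 and 3.38 CPM in 22Rv1 and 361, 393 and 376 CPM in C4-2. SMS, the spermine synthase, was lower, at -2.12 log2 units, and SAT1, which acetylates polyamines for export, was lower with R1881 and higher in vehicle, at -0.83 and 2.04. The metallothionein MT2A did the reverse, with log2 differences of 1.33 with R1881 and -0.66 in vehicle, and MT1G was at 20.5 CPM in 22Rv1 with no count in C4-2.

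HOX genes, which set position along the body axis, were higher in 22Rv1 in 20 of 31 tested and lower in 4, with a median of 2.63. Of the 31, 7 were at the floor in a line, which set their direction. HOXA9 was at 18.5 ± 0.673 CPM in 22Rv1 and 0.149 ± 0.102 in C4-2, and HOXC10 at 19 ± 0.913 and 0.363 ± 0.263 CPM. HOXC6 was lower, at -1.31 log2 units, as was HOXB13. Cancer-testis antigens were higher in 3 and lower in 7 of 14 tested. MAGEA4 was at 205 ± 10.5 CPM in 22Rv1 and 0.369 ± 0.0775 in C4-2, MAGEA10 had no count in 22Rv1 and was at 81.5 ± 9.65 CPM in C4-2, and PAGE1 and PRAME were lower, at -8.26 and -3.60 log2 units. Members of the MAGE and PAGE families are close in sequence, so the split of counts among them is uncertain.

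The m6A machinery, the subject of the series, was called in 9 of 20 tested genes, 6 higher and 3 lower, which is 45.0%, against 60.4% for all genes. METTL3 was higher in 22Rv1 by 0.61 ± 0.09 log2 units, near the threshold, and was at 0.55 without C4-2 replicate 1 and 0.36 with a GC offset, neither of which was called. ALKBH5, a demethylase, was at 71.2, 68.8 and 70.6 CPM in 22Rv1 and 492, 366 and 391 CPM in C4-2, while FTO, another demethylase, was at 69.6 ± 1.77 and 89.3 ± 3.08 CPM and had been higher in 22Rv1 in vehicle by 0.99 log2 units. The reader IGF2BP1 was at 29.9 ± 3.39 CPM in 22Rv1 and had no count in C4-2, and IGF2BP2 was higher by 6.52 log2 units. Among long noncoding RNAs 9 of 15 were higher and 3 lower in 22Rv1, with CRNDE and GAS5 higher by 1.84 and 0.90 log2 units and PCAT6 lower, at -4.55 log2 units. Semaphorins, ephrins and guidance receptors were divided, with 9 of 29 higher and 10 lower and a median of -0.05, or 0.14 when scaled by library size alone. EPHB3, an ephrin receptor, was at 649 ± 5.82 CPM in 22Rv1 and 19.1 ± 3.11 in C4-2, PLXNA2 was higher by 4.89 log2 units and ROBO1 by at least 6.52, and SEMA3F and its receptor NRP1 were lower, at -4.70 and -3.47 log2 units.

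The 12 genes with the largest fold higher in 22Rv1 among genes at 10 CPM or more were ranked by the lower bound of the fold for genes with at most 3 counts in every C4-2 library and by the fitted fold for the others, so their order depends on the depth of C4-2. PDK4, a kinase that holds pyruvate out of the mitochondrion in favour of fat oxidation, was at 571, 593 and 587 CPM in 22Rv1 and at most 3 counts in each C4-2 library, higher by at least 11.70 log2 units. SPINK1, AKR1C2 and TSPAN8, described above, were among them. The matrix proteoglycan VCAN was at 208 ± 9.09 CPM with no count in C4-2, and ADRA2A, an adrenergic receptor, RIPOR2, a regulator of cell polarity, and CNN3, a calponin, were higher by at least 10.38, 10.13 and 10.02 log2 units. ALDH1L2, a mitochondrial folate enzyme, PEX5L, a peroxin relative, FRAS1, a basement membrane protein, and BEX1, a brain-expressed X-linked gene, were higher by 10.27, 10.07, 9.99 and 9.96 log2 units. All 12 were also called higher in vehicle and with METTL3 depleted.

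The 12 genes with the largest fold in the other direction were called lower in vehicle and with METTL3 depleted as well, and 8 of them had at most 3 counts in every 22Rv1 library. PIK3CD and MAGEA10 were among them. RAB25, an epithelial vesicle GTPase, was at 0.108, 0.112 and 0 CPM in 22Rv1 and 111, 94.7 and 96.7 CPM in C4-2, lower, at -9.27 log2 units or below. TNFRSF19, a TNF receptor family member, was at 0.327 against 204 CPM, and IRX4, a homeobox factor, at 0.0361 against 65.1. The others were MAB21L4, IL32, EFS, CAMK1D, ARHGAP28, PAGE1 and PASD1, with C4-2 levels of 76.7, 46.3, 43.4, 36.7, 111, 197 and 31.7 CPM and 22Rv1 levels under 1 CPM.

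The 12 genes with the largest CPM difference toward 22Rv1 included 3 amino acid transporter genes. SLC7A5, the leucine importer, was at 3284, 3281 and 3358 CPM in 22Rv1 and 383, 302 and 328 CPM in C4-2, its heavy chain SLC3A2 at 1276 ± 17.4 and 231 ± 30.1 CPM, and the glutamine importer SLC38A2 at 1672 ± 63.2 and 534 ± 29.5 CPM. Their log2 differences were 3.29 ± 0.09, 2.47 ± 0.10 and 1.65 ± 0.08. VGF, a neuropeptide precursor of secretory granules, was at 1453, 1492 and 1401 CPM in 22Rv1 and 28.4, 20.9 and 23.2 CPM in C4-2, and CA12, a carbonic anhydrase, at 1136 ± 30.8 and 9.44 ± 1.44 CPM. ALDH3A2, a fatty aldehyde dehydrogenase, the mitochondrial chaperones HSPD1 and HSPA9, the phosphatase PTP4A1, the histone gene H3-3B and TMBIM6, a regulator of endoplasmic reticulum calcium, were higher by 3.26, 1.14, 1.42, 2.78, 2.04 and 0.93 log2 units, with HSPD1, PTP4A1 and H3-3B uncertain because of their processed copies. These 11 genes and CCND1 were called alike in vehicle and with METTL3 depleted.

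In C4-2 the largest CPM differences were in mitochondrial and lipid genes. MT-CO1, a cytochrome oxidase subunit, was at 12537, 12586 and 13659 CPM in 22Rv1 and 20081, 28601 and 28442 CPM in C4-2, and MT-RNR2, MT-ND4 and MT-ATP6 were lower in 22Rv1, at -1.39, -1.34 and -1.18 log2 units. Of 31 mitochondrial genes tested, 22 were lower and 0 higher in 22Rv1, with a median of -0.99, and the share of fragments from them was given above. FASN, SCD, FADS2, INSIG1, PGK1 and ENO1 followed. CKB, the brain creatine kinase, was at 511 ± 34.1 CPM in 22Rv1 and 3725 ± 940 in C4-2, and ABHD2, a lipase induced by androgen, at 102, 100 and 110 and 3285, 3080 and 2997 CPM. Of these 12 genes, 9 were called in the same direction in vehicle and 12 with METTL3 depleted.

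Genes whose line difference changed most with R1881 were, in several cases, ones that a single condition set apart. NPPC, the C-type natriuretic peptide, was at 123, 43.8 and 47.6 CPM in C4-2 with R1881 and 1.03 ± 0.398 CPM in 22Rv1, while in vehicle the means were 0.498 and 1.09 CPM (log2 change -7.23 ± 0.85, adjusted p = 1.15e-05, edgeR). TRGC1, a constant segment of the T-cell receptor gamma locus, was at 2.72 CPM in C4-2 with R1881 and 0.0383 CPM in vehicle, and at 13.3 and 13.8 CPM in 22Rv1. CCDC80 and PCDH19, a matrix protein and a protocadherin, showed the reverse, at 1.08 and 0.581 CPM in C4-2 with R1881 against 22.4 and 34.8 CPM in vehicle, with log2 changes of 5.09 and 4.89. In 22Rv1 CCDC80 was at 1.9 and 1.16 CPM, and PCDH19 at 0.855 and 1.72 CPM.

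For the other genes chosen by the size of this change and not described above, at least 1 of the C4-2 conditions had no count or nearly none, so levels are given in place of a fold. MGAT4C, a glycosyltransferase, was at 1.57 CPM in 22Rv1 with R1881 and 21.2 CPM in vehicle (C4-2 0.0913 and 0), and ASB9, a ubiquitin ligase adaptor, at 85.3 and 201 CPM (C4-2 0.206 and 0). SPOCK1, a proteoglycan, was at 33.9 and 11.1 CPM in 22Rv1 and at 1.78 and 0 CPM in C4-2. SPRY4, a feedback inhibitor of receptor tyrosine kinases, was at 45.3 and 29.9 CPM in 22Rv1 and at 0.0196 and 0.605 CPM in C4-2. SCGN, ZC4H2, DPYSL5, CNTN1 and MECOM had no count in C4-2 with R1881 and vehicle means under 1 CPM there, and were at 15.4, 23.3, 10.1, 4.61 and 9.96 CPM in 22Rv1 with R1881.

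Line differences were also summarised along the genome. In 292 windows of 10 Mb with at least 15 tested genes, the median log2 difference per window had a median of 0.20, with 5th and 95th percentiles of -0.63 and 1.11. In 21 windows it was over 1 and in 1 under -1. The highest medians, 2.58, were in the windows from 140 to 150 Mb of chromosome 5 (121 genes) and from 20 to 30 Mb of chromosome 19 (64 genes). The window on chromosome 5 holds the 3 clusters of protocadherins, cell adhesion molecules of neurons. Of the 55 tested genes there with a symbol beginning in PCDH, which include pseudogenes and genes outside the clusters, 50 were higher and 2 lower in 22Rv1, and 32 had at most 3 counts in every C4-2 library with R1881. The other 66 genes of the window had a median of 0.06.

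By cluster, 15 of 15 PCDHA, 16 of 16 PCDHB and 16 of 20 PCDHG genes were higher, with medians of 8.98, 6.12 and 2.85, or 4.76, 4.08 and 2.71 with genes at the floor set to their bound. In these clusters 14, 12 and 4 genes had at most 3 counts in every C4-2 library with R1881, so that they could come out only as higher in 22Rv1. Genes of the PCDHA and PCDHG clusters share their last exons, so their counts are uncertain and not independent. NR3C1, SPRY4 and SPINK1 lie in the same window. The window on chromosome 19 holds zinc finger genes, of which 29 of 30 were higher (10 of them with at most 3 counts in every C4-2 library), with a median of 3.48 against 1.58 for the other 34 genes. Next came 10 to 20 Mb of chromosome 7 (22 genes, median 2.43, 19 higher), which holds ETV1, AGR2 and TWIST1, and 60 to 70 Mb of chromosome 4 (23 genes, median 1.92), which holds the UGT2B genes.

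At the low end were 130 to 140 Mb of chromosome 10 (38 genes, median -1.17, with BNIP3), 0 to 10 Mb of chromosome 1 (168 genes, median -0.95, with PIK3CD and ENO1), 120 to 130 Mb of chromosome 2 (28 genes, median -0.91) and 240 to 250 Mb of chromosome 2 (40 genes, median -0.85, with MAB21L4). The medians of these 8 windows had the same sign in vehicle and with METTL3 depleted, but that on chromosome 4 was 0.64 in vehicle and 2.24 with METTL3 depleted, against 1.92. Copy number was not analysed here.

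**Figure D5:**
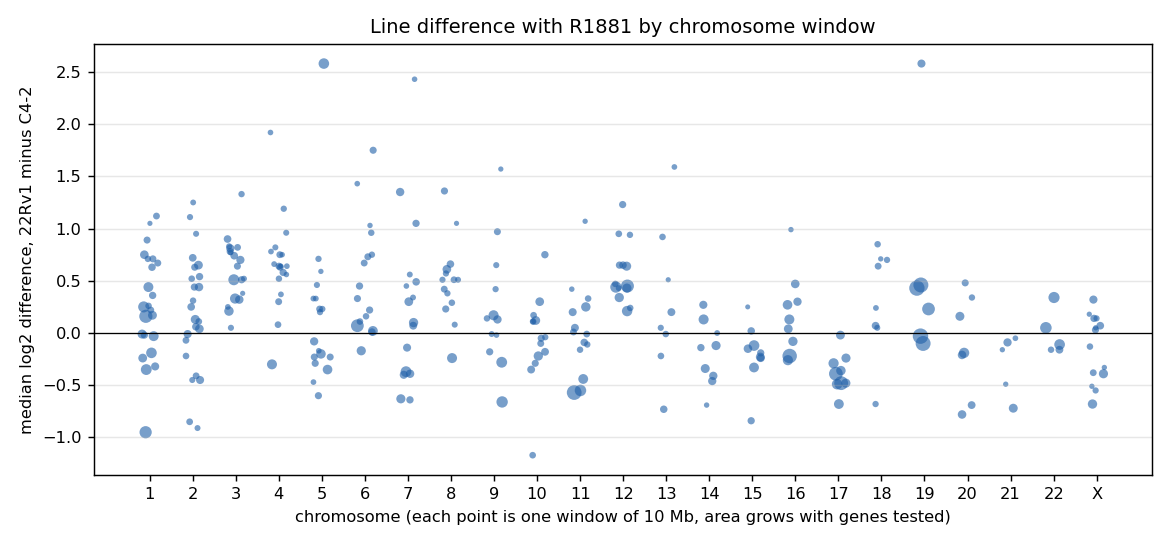
Median log2 difference with R1881 (22Rv1 minus C4-2) in each of 292 windows of 10 Mb, 1 point a window, grouped by chromosome with horizontal jitter and with area growing with the genes tested. Windows of chromosomes 5 and 19 reach 2.58, and a single window, on chromosome 10, lies under -1.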

How the data were processed

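RNA was sequenced in 24 libraries of 22Rv1 and LNCaP:C4-2 cells. The authors trimmed reads with Trim Galore and cutadapt, checked them with FastQC, used STAR to align them to GRCh38, and ran featureCounts 1.5.0 on the genes of Ensembl release 83, and the raw counts of fragments per gene were deposited for each library without normalisation. Fragments with more than 1 alignment or gene were not counted, and strand was not used, so near-identical, overlapping and antisense genes cannot be told apart fully. The table holds 60675 genes, of which 56558 were named through the reference annotation, and 546 on chromosome Y and XIST were left out.

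Groups came from the labels. Counts of the 12 siSCR libraries were filtered (filterByExpr, at least 10 counts in enough libraries and 15 in all), scaled by TMM and fitted with a mean for each of 4 conditions in edgeR 4.0.16 (R 4.3.3, limma 3.58.1) with 8 residual degrees of freedom. Quasi-likelihood tests gave the line difference with R1881, that in vehicle and its change, and the siMETTL3 libraries were fitted apart. P-values were adjusted by Benjamini-Hochberg over all genes tested, and a call needed an adjusted p under 0.05 and at least 1.5-fold. CPM are TMM-scaled. Figures and tables were made in Python 3.11.15. On simulated counts of 18055 genes for the line difference with R1881, with 200 changed by 1 log2 unit, 72.5% were recovered and 3.33% of calls were false. The simulated lines differed with R1881 only in these 200 genes, whereas 60.4% of genes were called in the data. The simulated rates therefore do not measure false calls or scaling error in the data.

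Genes named in the text were METTL3, a selection of the members of 27 lists (681 genes, 581 tested), the 12 genes with the largest fold in each direction at 10 CPM or more in the higher line, the 12 with the largest CPM difference, the 8 with the largest change in each direction, and the 4 highest and lowest windows of 10 Mb. Some genes and 1 list that this rule covers are not reported here. The groups compared, lists and genes were chosen with earlier results of these data known. Same-numbered libraries of the lines correlated at 0.00376 to 0.0762 in their deviations from group means with R1881, and the numbers were not taken as pairs. Alternatives were other scalings, DESeq2 1.42.0, other filters, samples and thresholds, a replicate block, a GC offset (spline, 5 degrees of freedom) and leaving out each library. Depths of 15716224 to 21306019 fragments limit what can be said of genes with at most 3 counts in a library, whose folds are given as bounds. Counts at 4-fold or more, and medians not stated to use bounds, rest on the fitted fold of such genes.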

Additional observations from a re-analysis of the deposited data

Results flagged for a closer look

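The line difference with R1881 was tested against that in vehicle in the interaction of line and treatment (quasi-likelihood test in edgeR, Benjamini-Hochberg adjusted), and 2330 genes differed. A selection of 52 genes described in the report and with a called change is given here. Values are the log2 change, R1881 minus vehicle of the 22Rv1 minus C4-2 difference. Other described genes also had a called change, among them ABHD2 (-1.23), VGF (-0.91), CKB (-0.84) and PGK1 (-0.59) downward and CA12 (0.79) upward.

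Among androgen-induced genes the change was -4.12 for KLK3, -3.98 for KLK2, -2.28 for KLK4, -4.69 for TMPRSS2 and -3.74 for SLC45A3. It was -2.07 for ABCC4, -1.90 for NDRG1, -6.09 for MAF, -3.80 for RHOU, -4.22 for PTGER4 and -1.43 for ZBTB10. The lineage factors HOXB13, GRHL2 and SPDEF changed by -1.26, -1.31 and -2.08. Of the glucuronidation genes, UGT2B11 changed by 2.42 and UGT2B28 by 2.81. Surface antigens went both ways, with -2.34 for FOLH1 and -3.28 for MUC1 against 1.31 for STEAP1 and 1.11 for STEAP2. The change was 2.30 for SPINK1 and -2.24 for KRT19. For SPINK1 it came with low levels in C4-2, 0.195 CPM with R1881 and 1.21 CPM in vehicle. In 22Rv1 SPINK1 was at 371 CPM with R1881 and 458 CPM in vehicle.

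Among growth factor and signalling genes the change was -2.07 for EGFR, -3.88 for IGF1R, -2.92 for IRS1 and -2.49 for IRS2, all downward in 22Rv1, and 1.84 for MET, 4.19 for IGFBP3 and 2.56 for LEF1, all upward. ALDOC and EGLN3 changed by -1.77 and -2.74. The lipid synthesis genes changed by -1.28 for SREBF1, -1.69 for INSIG1, -1.10 for HMGCS1, -1.10 for FASN, -1.67 for SCD and -1.64 for FADS2. Replication and repair genes changed upward, by 0.82 for CDK4, 0.94 for TK1, 1.10 for MCM5, 0.97 for MCM2, 1.25 for BRCA1 and 1.28 for BARD1.

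NLRC5 changed by 4.30, GCLC by 1.66, MT2A by 1.98, SAT1 by -2.87 and FTO by -1.35. Among genes chosen for the size of their change it was -7.23 for NPPC and -6.00 for TRGC1 downward, and 5.09 for CCDC80 and 4.89 for PCDH19 upward.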

How the results depend on the processing

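The counts of called genes for the line difference stayed within 1.5 times under every alternative run, with R1881, in vehicle and with METTL3 depleted. With a replicate block they were 11182, 10950 and 11223, and with DESeq2 11100, 10795 and 11201. The count for the change of the line difference, 2330, was 748 with the 1.5-fold threshold inside the test and 1493 at an adjusted p under 0.01, both stricter by construction, and 2545 with a replicate block. Leaving out 1 library gave 11047 to 11430 calls with R1881, 10931 to 11118 in vehicle, 1990 to 2428 for the change and 11259 to 11419 with METTL3 depleted. With scaling by library size alone 62.9% of R1881 calls were higher in 22Rv1, against 54.6%, and 51.3% of changes were upward, against 39.3%.

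Small differences with R1881 turned sign, and none of these genes had been called. UGT2B28 and KRT8 were at 0.09 and 0.00 with library size alone, and KLK4 at 0.20, SLC26A3 at -0.28, KRT8 at 0.13 and B2M at -0.33 with a GC offset. Over the fits that left out 1 library, SLC26A3 ranged from -0.19 to 0.22, B2M from -0.02 to 0.05, SREBF2 from -0.06 to 0.17 and UGT2B28 from -0.33 to 0.08. The cause was not tested. Among 222 genes named, 9 lost their call under some alternative other than leaving out a library. They were METTL3, SPDEF, SRD5A1, MCM2, UGT2B11, REST, ELOVL6, GAS5 and CCDC80. The 222 include genes with no call to lose, such as KLK4, KRT8 and B2M, so 9 of 222 understates the share of calls lost. PCDH19 was called, at 0.88, without 22Rv1 replicate 3. With the stricter filter, the medians of the windows at 130 Mb of chromosome 10, 240 Mb of chromosome 2 and 60 Mb of chromosome 4 were -1.61, -0.70 and 1.41.

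Genes with at most 3 counts in every library of a line have folds bounded by depth, and the spread is that of 3 libraries of 1 line.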
